A study of Mus musculus with 12 samples.

Results

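Stable lines of 4T1, a mouse mammary epithelial carcinoma cell line, were compared for 40 genes of actin-binding and contractile proteins known as targets of serum response factor (Srf). The genes were taken from a fixed list that leaves out the actins and tropomyosins. A gene was represented by the row that carries its symbol alone in the platform annotation, and by the brightest row where it had several. All 40 genes had such a row, among 34760 probe sets and 19937 genes with a single symbol.

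The 12 samples are total RNA from 4 lines with 3 arrays each. The lines are 4T1-control, 4T1-FL, 4T1-mutB1 and 4T1-ΔSAP. The names FL, mutB1 and ΔSAP stand for constructs of megakaryoblastic leukemia-1 (Mkl1, now called Mrtfa). FL is read here as full length, mutB1 as altered in the B1 region, which is known for contact with Srf, and ΔSAP as lacking the SAP domain. All 4 lines share the BALB/cfC3H background of 4T1, keep their own Mkl1 gene, and were held in 0.03% fetal calf serum for 48 h. Passage number, the vector of the control line and the promoter driving the constructs are not stated in the labels. Each construct is 1 stable line, so that a construct and a line cannot be told apart, and the p-values measure the spread between arrays of the same line.

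Mkl1 is a coactivator that monomeric actin holds in the cytoplasm. When actin polymerises, Mkl1 enters the nucleus, joins Srf at CArG boxes and raises transcription of many genes whose products build, crosslink and contract actin filaments. In mammary tissue this programme is best known from myoepithelial cells, and in carcinoma cells it is studied for its part in adhesion and migration.

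Values are deposited log2 expression values, so that a difference of 1 is a 2-fold difference. Array medians lay between 6.35 and 6.45, and arrays of the same line correlated at 0.995 to 0.997 across probe sets. A line mean below 6.35 is called low here, since such a signal may be background. Mkl1 itself stood at 9.27 ± 0.01 (SD, n = 3) in control. It was higher in the construct lines, at 12.08 ± 0.06 for FL, 11.29 ± 0.11 for mutB1 and 11.92 ± 0.04 for ΔSAP, with a difference between FL and mutB1 of 0.79 ± 0.06 (SE, limma adjusted p = 2.79e-06). The epithelial keratins Krt8 (12.93 to 13.20 as line means) and Krt18 (12.55 to 12.88) were high in every line. The smooth muscle markers Myh11 (5.97 to 6.03) and Des (5.45 to 5.55), the myoepithelial Krt5 (5.21 to 5.33) and the leukocyte marker Ptprc (4.52 to 4.70) were low in every line. Some other members of the smooth muscle, myoepithelial and leukocyte lists were not. Of 7 smooth muscle markers, 6 were low in control, in FL and in mutB1, and 5 in ΔSAP. Synm stood at 6.41 to 6.44 in all lines, and Actg2 at 6.69 in ΔSAP and 5.65 to 6.04 in the others. Of 6 basal or myoepithelial markers, 3 were higher in FL than in control and in mutB1, with Krt17 at 7.48, Krt14 at 6.82 and Acta2 at 6.63 in FL, and Krt17 (6.78), Krt14 (6.43) and Acta2 (6.98) were above 6.35 in ΔSAP too. Cd68 of the leukocyte list stood at 8.53 to 9.58 in all lines. The mean level of 10 simple epithelial markers lay between 8.55 and 8.59 on the mutB1 arrays, against 9.71 to 10.77 on the others, and 8 of them were lower in mutB1 than in control. Of 10 fibroblast markers, 2 were higher in mutB1 than in control and none was lower, with a median change of -0.0091. The 2 were Pdgfrb (10.29 against 6.85) and Fbln1 (9.60 against 6.99), and the mean level of the list was 7.13 to 7.19 on the mutB1 arrays and 6.35 to 6.58 on the others. The part of these markers in the differences below was not tested.

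The gene set as a whole did not move one way. In FL against mutB1, 8 of the 40 genes were higher (8.82% of all probe sets were), 11 were lower (9% of all probe sets) and 21 did not pass, with a median log2 change of 0.03. In FL against ΔSAP, 5 were higher (5.73% of all probe sets), 3 were lower (5.7%) and 32 did not pass, with a median of 0.01. The medians over all probe sets were -0.0039 and 0.03. A gene is called higher or lower where limma gave an adjusted p of at most 0.01 over all 34760 probe sets. Both main comparisons share the FL arrays.

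The share of genes called was above that of all probe sets in each comparison. It lay on either side of that of genes above a brightness limit, which were not matched to the 40 genes in level. In FL against mutB1, 47.5% of the 40 genes were called. The same rule called 17.8% of all probe sets, 25% of the single-symbol genes and 41% of the 11341 single-symbol genes whose mean lies above the lowest array median, a limit that 35 of the 40 genes exceed and that was chosen after the values were seen. In FL against ΔSAP the share was 20%, beside 11.4%, 16.7% and 28%. An F test over the 4 lines called 25 of the 40 genes (62.5%), beside 27.7% of all probe sets, 38.8% of the single-symbol genes and 63.7% of the brighter genes. The counts say nothing particular about actin-binding genes.

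**Figure D1:**
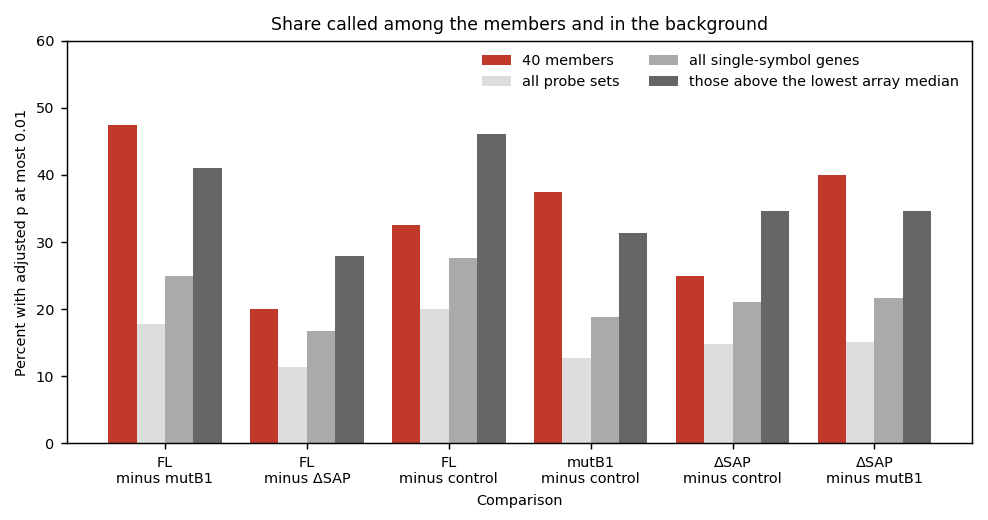
Percent of features with limma adjusted p of at most 0.01 (vertical axis) in each of the 6 comparisons, for the 40 genes (red), all probe sets (light grey), all single-symbol genes (mid grey) and those above the lowest array median (dark grey). The red bars run from 20% to 47.5% and lie on either side of the dark grey bars, which run from 28% to 46.1%.

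Against control, 13 genes were called in FL (7 higher, 6 lower; 32.5%, beside 20% of all probe sets), 15 in mutB1 (8 higher, 7 lower; 37.5%, beside 12.7%) and 10 in ΔSAP (5 higher, 5 lower; 25%, beside 14.8%). Among the single-symbol genes the same rule called 27.6%, 18.8% and 21.1%, and among the brighter ones 46.1%, 31.3% and 34.7%. By direction, 9.61% of all probe sets were higher and 10.4% lower in FL against control, 5.83% and 6.89% in mutB1 against control, and 6.96% and 7.83% in ΔSAP against control. Between ΔSAP and mutB1, 16 were called (7 higher, 9 lower in ΔSAP; 40%, beside 15.1% of all probe sets, 7.07% higher and 8% lower, 21.6% of the single-symbol genes and 34.7% of the brighter ones). The split into higher and lower depends on the scaling. After median centring of the arrays, 4 were higher and 11 lower in FL against mutB1, 3 and 3 in FL against ΔSAP, and 3 and 5 in ΔSAP against control. After a further quantile normalization, 5 were higher and 7 lower in FL against control. Most differences were small. The line means of 22 of the 40 genes spanned less than 0.3 on the log2 scale, and 2 genes, Tns1 and Synpo2, spanned more than 1. Spans were not counted over all genes. In FL against mutB1 the median absolute change of the 40 genes was 0.148, beside 0.115 over all single-symbol genes. In FL against ΔSAP these medians were 0.086 and 0.095.

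**Figure D2:**
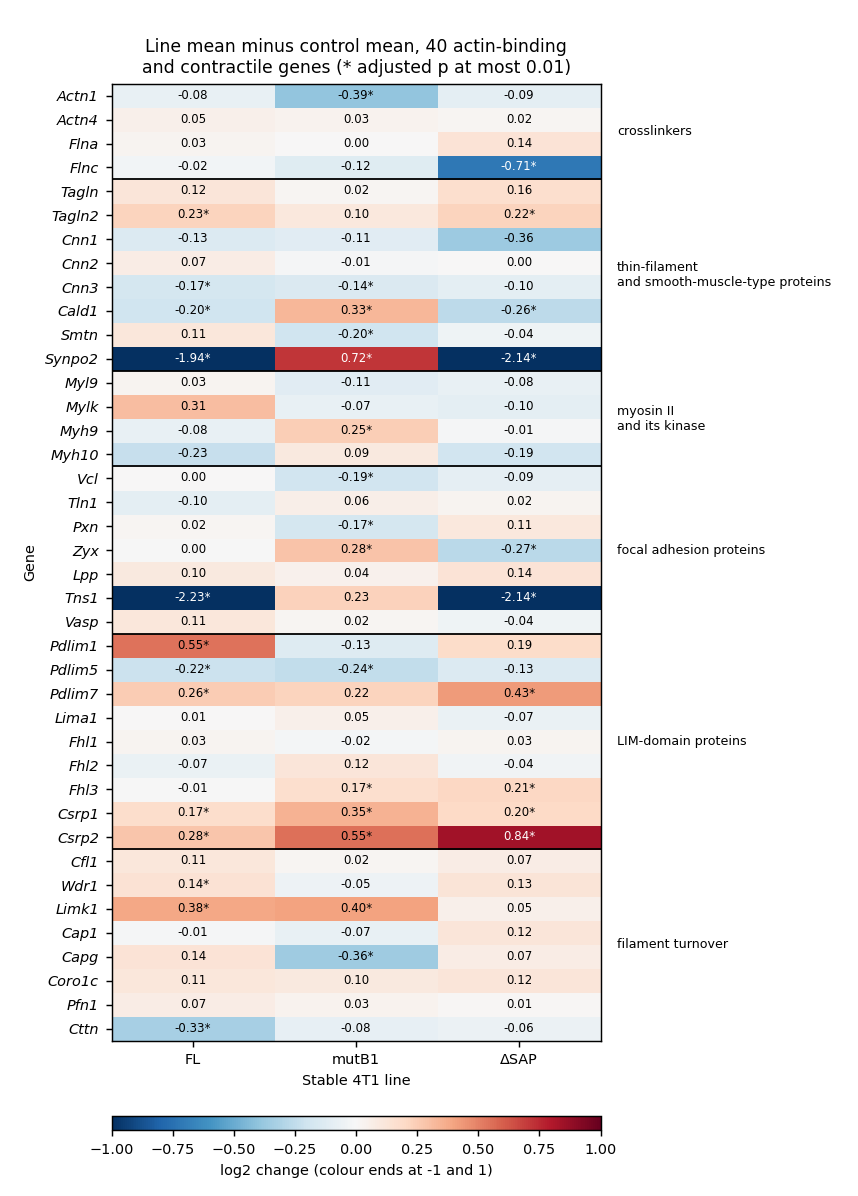
Line mean minus control mean on the log2 scale for the 40 genes (rows, grouped by role) in the FL, mutB1 and ΔSAP lines (columns), with an asterisk where limma adjusted p is at most 0.01. Synpo2 and Tns1 are dark blue in FL and ΔSAP, at -1.94 and -2.23 in FL, while most cells are pale.

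Of the 40 genes, 36 had a promoter window in RefSeq's table for GRCm38.p6, which holds the 250 bases before and 50 bases after a gene's start, with 44 windows in all. Csrp2, Cttn, Pxn and Tagln had none. A CArG box, the site that Srf binds, was found in 7 of the 44 windows (15.9%), beside 1.63% of all 32851 windows of that length. The 7 windows belong to Cnn2, Fhl1, Fhl2 (which has 2 starts), Lima1, Myl9 and Vcl. They are shown because they are the members in which the sequence near the start carries the motif the list is named for. Each stretch is given 5′ to 3′ on the gene's strand, with the CArG box in capitals.
Cnn2 (chr10:79988524-79988573, plus strand): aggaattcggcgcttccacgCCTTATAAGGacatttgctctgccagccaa
Lima1 (chr15:99820167-99820216, minus strand): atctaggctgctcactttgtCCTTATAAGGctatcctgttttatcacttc
Vcl (chr14:20929151-20929200, plus strand): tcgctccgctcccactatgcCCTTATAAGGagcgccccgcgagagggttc
Myl9 (chr2:156775283-156775332, plus strand): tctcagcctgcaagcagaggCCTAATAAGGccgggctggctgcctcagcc
Fhl1 (chrX:56779561-56779610, plus strand): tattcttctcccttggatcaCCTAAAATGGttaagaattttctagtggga
Fhl2 (chr1:43163963-43164012, minus strand): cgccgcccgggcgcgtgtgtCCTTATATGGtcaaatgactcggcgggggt
Fhl2, other start (chr1:43196828-43196877, minus strand): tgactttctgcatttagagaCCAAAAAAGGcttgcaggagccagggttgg
Cnn2, Lima1 and Vcl hold the same 10 bases, and the boxes begin 56, 47 and 227 bases before their starts.

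These 6 genes were among the 22 whose line means spanned less than 0.3, with spans from 0.05 to 0.19. Cnn2, a calponin that binds actin filaments, had line means from 11.77 to 11.85, and Lima1, a LIM protein that bundles actin, from 10.23 to 10.35. Neither passed in any of the 6 comparisons. Vcl, the vinculin that ties integrin adhesions to actin, was called in 2 comparisons and Fhl2, a LIM-only cofactor, in 1. Myl9, the regulatory light chain of smooth muscle myosin, and Fhl1 were low in every line (5.46 to 5.60 and 5.45 to 5.50), so that a change in them could be hidden in background. No match in a window says only that these letters are not in that window.

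Vcl stood at 10.97, 10.98 and 11.03 on the control arrays, 10.95, 10.997 and 11.04 in FL, 10.75, 10.84 and 10.82 in mutB1 and 10.87, 10.95 and 10.90 in ΔSAP. All mutB1 arrays were below all control and all FL arrays. FL exceeded mutB1 by 0.19 ± 0.04 (SE, limma adjusted p = 0.00548) and did not pass against ΔSAP (0.09, limma adjusted p = 0.18). MutB1 was below control by a change of -0.19 ± 0.04 (limma adjusted p = 0.00808). Without mutB1 replicate 1 the first adjusted p was 0.0241, and without control replicate 3 the second was 0.0372. Fhl2 read 10.10, 10.09 and 10.10 in FL and 10.24, 10.30 and 10.31 in mutB1, without overlap. Its change in FL against mutB1 was -0.19 ± 0.04 (limma adjusted p = 0.00378, and 0.0183 without mutB1 replicate 3).

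The focal adhesion genes included the gene with the smallest adjusted p of the set. These proteins couple integrins to the actin cytoskeleton. Of 7, Vcl and Pxn were higher and Zyx and Tns1 lower in FL against mutB1, and Tln1, Lpp and Vasp did not pass. In FL against ΔSAP Zyx was higher and the other 6 did not pass. Of all probe sets, 8.82% were higher and 9% lower in FL against mutB1, and 5.73% and 5.7% in FL against ΔSAP. The counts in this and the following role groups are to be read against these shares, and each group holds few genes.

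Tns1 encodes tensin-1, which binds both integrin tails and actin filaments at fibrillar adhesions. Its values were 10.44, 10.44 and 10.51 in control and 10.66, 10.70 and 10.72 in mutB1. They were 8.24, 8.07 and 8.38 in FL and 8.29, 8.39 and 8.28 in ΔSAP. The FL and ΔSAP arrays overlap each other and lie about 2 log2 units below every control and mutB1 array. FL was 5.51-fold lower than mutB1 (change -2.46 ± 0.07, SE, limma adjusted p = 4.21e-09) and 4.69-fold lower than control (-2.23 ± 0.07, adjusted p = 6.64e-09). ΔSAP was 4.41-fold lower than control (-2.14 ± 0.07, limma adjusted p = 1.44e-08). The change from ΔSAP to FL was -0.09 ± 0.07 (limma adjusted p = 0.483), and mutB1 exceeded control by 0.23 ± 0.07, which did not pass (limma adjusted p = 0.0404).

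Tns1 has 6 single-symbol probe sets, and 5 of them fell in FL and in ΔSAP against both control and mutB1. In FL against mutB1 the changes of those 5 ran from -1.78 to -2.52. The other, probe set 10355528, changed by -0.10 ± 0.09 (limma adjusted p = 0.477), with line means between 7.84 and 8.15. In mutB1 against control, probe set 10355534 was higher (0.30 ± 0.05, limma adjusted p = 0.00159), and the other Tns1 probe sets did not pass. The probe positions within Tns1 were not checked.

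**Figure D3:**
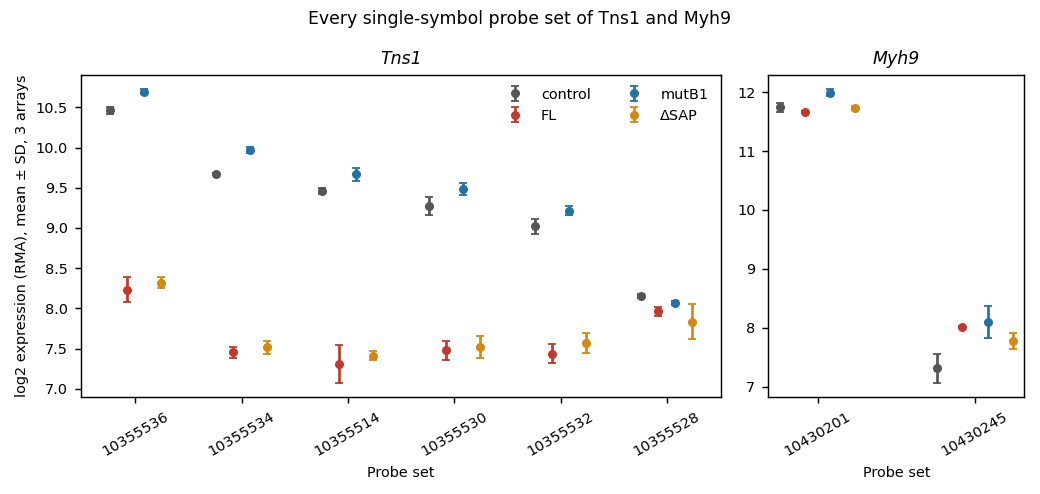
Mean and SD of 3 arrays (log2, vertical axis) for each single-symbol probe set of Tns1 (left) and Myh9 (right), by line. For Tns1 the control and mutB1 means stand above the FL and ΔSAP means at 5 of 6 probe sets, and at 10355528 the 4 lines lie between 7.84 and 8.15.

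Synpo2 encodes synaptopodin-2 (myopodin), an actin-bundling protein of Z discs and stress fibres. As with Tns1, control and mutB1 were above FL and ΔSAP. Its values were 7.88, 7.87 and 7.90 in control, 8.72, 8.57 and 8.51 in mutB1, 5.67, 6.14 and 6.003 in FL and 5.81, 5.87 and 5.53 in ΔSAP. Every FL and ΔSAP array was in the low range, and every control and mutB1 array above it. FL was 6.31-fold lower than mutB1 (-2.66 ± 0.12, limma adjusted p = 1.32e-07) and ΔSAP 7.25-fold lower (-2.86 ± 0.12, limma adjusted p = 6.9e-08). Because the FL and ΔSAP means (5.94 and 5.74) are low, these are the measured differences and may understate the true ones. Here mutB1 also exceeded control, by 0.72 ± 0.12 (limma adjusted p = 0.00181).

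The series design text asks for a 2-fold change and a mean log2 value of 4 or more beside the adjusted p of 0.01. Tns1 and Synpo2 were the 2 genes of the set that met this in FL against mutB1, where it was met by 1.6% of all probe sets. They were also the 2 genes that met it in FL against control, ΔSAP against control and ΔSAP against mutB1 (1.83%, 1.34% and 1.42% of all probe sets). None of the 40 met it in FL against ΔSAP (0.503%) or mutB1 against control (1.21%), although limma called 8 and 15 of them without the fold filter. The mesenchymal receptor gene Pdgfra had a like order of lines (control 10.76, FL 9.38, mutB1 10.87 and ΔSAP 9.74), and its part in the Tns1 and Synpo2 differences was not tested. The fibroblast list it belongs to was mixed, with 2 of 10 markers higher and 2 lower in FL than in control. Pdgfrb also had control (6.85) and mutB1 (10.29) above FL (6.33) and ΔSAP (5.92), whereas Fbln1 was lowest in control (6.99).

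The bases before the starts of Tns1 and Synpo2 are shown because these genes carry the largest differences. Neither window holds a CArG box, GGAATG (the core of TEAD sites, searched on both strands) or TGANTCA (the AP-1 site). GGAATG occurs in 14.7% and TGANTCA in 7.81% of all windows. The Synpo2 window holds a MEF2 site, in capitals, which begins 236 bases before the start. This motif was added after the sequence had been read, and 3.19% of all windows hold it.
Tns1 (chr1:74124549-74124798, minus strand): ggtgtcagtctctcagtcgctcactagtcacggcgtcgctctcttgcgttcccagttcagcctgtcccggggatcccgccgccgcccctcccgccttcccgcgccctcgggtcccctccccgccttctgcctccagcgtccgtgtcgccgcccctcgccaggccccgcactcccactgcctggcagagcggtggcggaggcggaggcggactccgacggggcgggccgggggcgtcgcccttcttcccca
Synpo2 (chr3:123236150-123236399, minus strand): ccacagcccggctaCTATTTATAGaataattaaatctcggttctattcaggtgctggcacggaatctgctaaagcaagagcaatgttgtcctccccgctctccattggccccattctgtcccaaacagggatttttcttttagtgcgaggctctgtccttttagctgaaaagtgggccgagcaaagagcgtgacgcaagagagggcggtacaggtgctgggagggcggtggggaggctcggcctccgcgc
A match is a description of the letters, and no binding was measured.

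**Figure D4:**
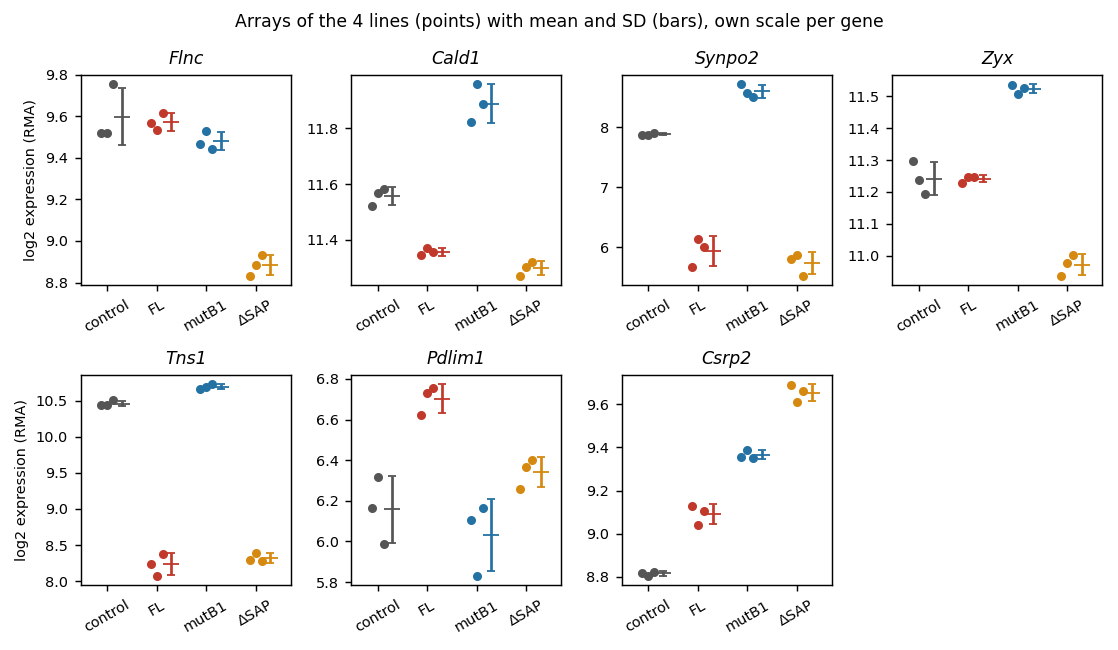
Log2 expression (vertical axis, own scale for each gene) on each array of the 4 lines, with mean and SD, for the 7 genes whose line means span at least 0.5. Tns1 and Synpo2 separate control and mutB1 from FL and ΔSAP, Zyx and Cald1 are highest in mutB1, Flnc is lowest in ΔSAP, Pdlim1 is highest in FL and Csrp2 differs between all 4 lines.

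Zyx, which encodes the focal adhesion and stress fibre protein zyxin, stood apart on either side of FL. Its values were 11.30, 11.24 and 11.19 in control, 11.23, 11.25 and 11.25 in FL, 11.54, 11.51 and 11.53 in mutB1 and 10.94, 10.98 and 11.003 in ΔSAP. The control and FL arrays overlap, all mutB1 arrays are above them and all ΔSAP arrays below. FL was lower than mutB1 (-0.28 ± 0.04, limma adjusted p = 0.000206) and higher than ΔSAP (0.27 ± 0.04, limma adjusted p = 0.000519). The direct comparison of ΔSAP with mutB1 gave -0.55 ± 0.04 (limma adjusted p = 2.04e-06). The Zyx window holds 1 copy of TGANTCA, 121 bases before the start. Pxn, the adhesion scaffold paxillin, had a level in FL above that in mutB1 by 0.19 ± 0.04 (limma adjusted p = 0.0036, and 0.0161 without mutB1 replicate 2) and higher in ΔSAP than in mutB1 by 0.28 ± 0.04 (limma adjusted p = 0.000354). Tln1 (talin), Lpp and Vasp passed in none of the 6 comparisons, with line means that spanned 0.14 to 0.16.

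Of the 4 crosslinkers, Actn1 was higher in FL than in mutB1 and Flnc was higher in FL than in ΔSAP. Actn1 encodes non-muscle alpha-actinin, which bundles stress fibres. It read 12.39, 12.40 and 12.40 in control, 12.32, 12.31 and 12.32 in FL, 12.03, 11.998 and 11.99 in mutB1 and 12.33, 12.28 and 12.30 in ΔSAP. The mutB1 arrays were below all others, the control arrays above all others, and the FL and ΔSAP arrays overlapped. FL was above mutB1 by 0.31 ± 0.03 (limma adjusted p = 2.71e-05), while mutB1 was below control by -0.39 ± 0.03 (limma adjusted p = 7.16e-06). Its relative Actn4 had line means from 12.60 to 12.65 and passed in no comparison.

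Flnc encodes filamin C, the muscle-type filamin. Its values were 9.52, 9.52 and 9.75 in control, 9.57, 9.53 and 9.62 in FL, 9.47, 9.53 and 9.44 in mutB1 and 8.83, 8.89 and 8.93 in ΔSAP. The ΔSAP arrays lie below all others, and the other 3 lines overlap. FL was 1.61-fold higher than ΔSAP (0.69 ± 0.06, limma adjusted p = 5.05e-05), and ΔSAP was below control by -0.71 ± 0.06 (limma adjusted p = 2.02e-05). Flna, the widely expressed filamin A, read 12.30, 12.33 and 12.32 in ΔSAP and 12.14 to 12.25 on the other 9 arrays. All ΔSAP arrays were thus the highest, opposite to Flnc, but no comparison passed (ΔSAP minus mutB1 0.13, limma adjusted p = 0.0213).

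The thin-filament group holds calponins, transgelins, caldesmon, smoothelin and Synpo2, which bind along actin filaments. Between FL and mutB1, 1 of 8 was higher in FL (Smtn), 2 were lower (Cald1, Synpo2) and 5 did not pass, beside 8.82% and 9% of all probe sets. Between FL and ΔSAP, 1 was higher in FL (Smtn) and 7 did not pass. Tagln and Cnn1, classic smooth muscle genes, were low in every line (5.15 to 5.32 and 5.03 to 5.39) and passed in none of the comparisons. For them the signal may be background in all 4 lines.

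Cald1 encodes caldesmon, which stabilises actin filaments and restrains actomyosin. Its values were 11.52, 11.57 and 11.58 in control, 11.34, 11.37 and 11.36 in FL, 11.82, 11.96 and 11.89 in mutB1 and 11.27, 11.30 and 11.32 in ΔSAP. The 4 lines do not overlap, with mutB1 highest, control next, and FL and ΔSAP at the bottom, where they differed by 0.06 (limma adjusted p = 0.415). FL was 1.45-fold lower than mutB1 (-0.53 ± 0.04, limma adjusted p = 4.98e-06), and mutB1 exceeded control by 0.33 ± 0.04 (limma adjusted p = 0.0002). FL was also below control (-0.20 ± 0.04, limma adjusted p = 0.00343), a call that was lost without control replicate 3 (limma adjusted p = 0.0168). Among the 7 genes with the widest span, Cald1 and Synpo2 share with Tns1 the place of control and mutB1 above FL and ΔSAP. The Cald1 window holds GGAATG and TGANTCA, 153 and 197 bases before the start. Mylk and Actn4 have both motifs too, although Actn4 passed in no comparison. Of the 36 genes with a window, 11 hold GGAATG and 4 hold TGANTCA.

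Smtn, the stress fibre protein smoothelin, had FL above mutB1 by 0.31 ± 0.03 (limma adjusted p = 5.51e-05) and above ΔSAP by 0.16 ± 0.03 (limma adjusted p = 0.00732). The latter was lost without ΔSAP replicate 2 (limma adjusted p = 0.0316). Tagln2, the transgelin of non-muscle cells, was higher than control in FL by 0.23 ± 0.03 (limma adjusted p = 0.000302) and in ΔSAP by 0.22 ± 0.03 (limma adjusted p = 0.000517). MutB1 gave 0.10, which did not pass (limma adjusted p = 0.0454). The calponins Cnn2 and Cnn3 had spans of 0.08 and 0.17, and Cnn3 was below control in FL by -0.17 ± 0.03 (limma adjusted p = 0.00196, and 0.0105 without FL replicate 2).

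Myosin II and the kinase of its light chain make up the contractile group. Myh9 and Myh10, the heavy chains of non-muscle myosin IIA and IIB, were both lower in FL than in mutB1, and Mylk, the myosin light chain kinase, was higher. Myh10 read 10.48, 10.42 and 10.55 in FL, 10.50, 10.57 and 10.51 in ΔSAP, 10.75, 10.88 and 10.81 in mutB1 and 10.65, 10.68 and 10.83 in control. The FL and ΔSAP arrays lie below those of the other 2 lines. Its change in FL against mutB1 was -0.33 ± 0.06 (limma adjusted p = 0.00181). For ΔSAP against mutB1 it was -0.28 ± 0.06 (limma adjusted p = 0.00504, and 0.0215 without mutB1 replicate 2).

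Myh9 changed by -0.32 ± 0.05 in FL against mutB1 at its brightest probe set (limma adjusted p = 0.000478), where the mutB1 arrays (11.93, 12.05 and 11.99) were above all others. A dimmer Myh9 probe set disagreed. It did not pass in that comparison (-0.08 ± 0.15, limma adjusted p = 0.767) and was higher than control in FL by 0.70 ± 0.15 (limma adjusted p = 0.00445), where the brightest gave -0.08 ± 0.05 (limma adjusted p = 0.307). The direction for Myh9 in FL against control therefore depends on the probe set. Both probe sets were higher in mutB1 than in control, the brightest by 0.25 ± 0.05 (limma adjusted p = 0.00365) and the dimmer by 0.78 ± 0.15 (limma adjusted p = 0.00347). The call at the brightest was lost when single arrays were left out. Mylk stood at 7.77, 7.71 and 7.78 in FL and between 7.16 and 7.49 on the other 9 arrays. FL stood above mutB1 by 0.38 ± 0.08 (limma adjusted p = 0.00546) and above ΔSAP by 0.40 ± 0.08 (limma adjusted p = 0.00558). Both calls were lost when single arrays were left out, with limma adjusted p of up to 0.0212 without FL replicate 1 and 0.0241 without ΔSAP replicate 1.

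**Figure D5:**
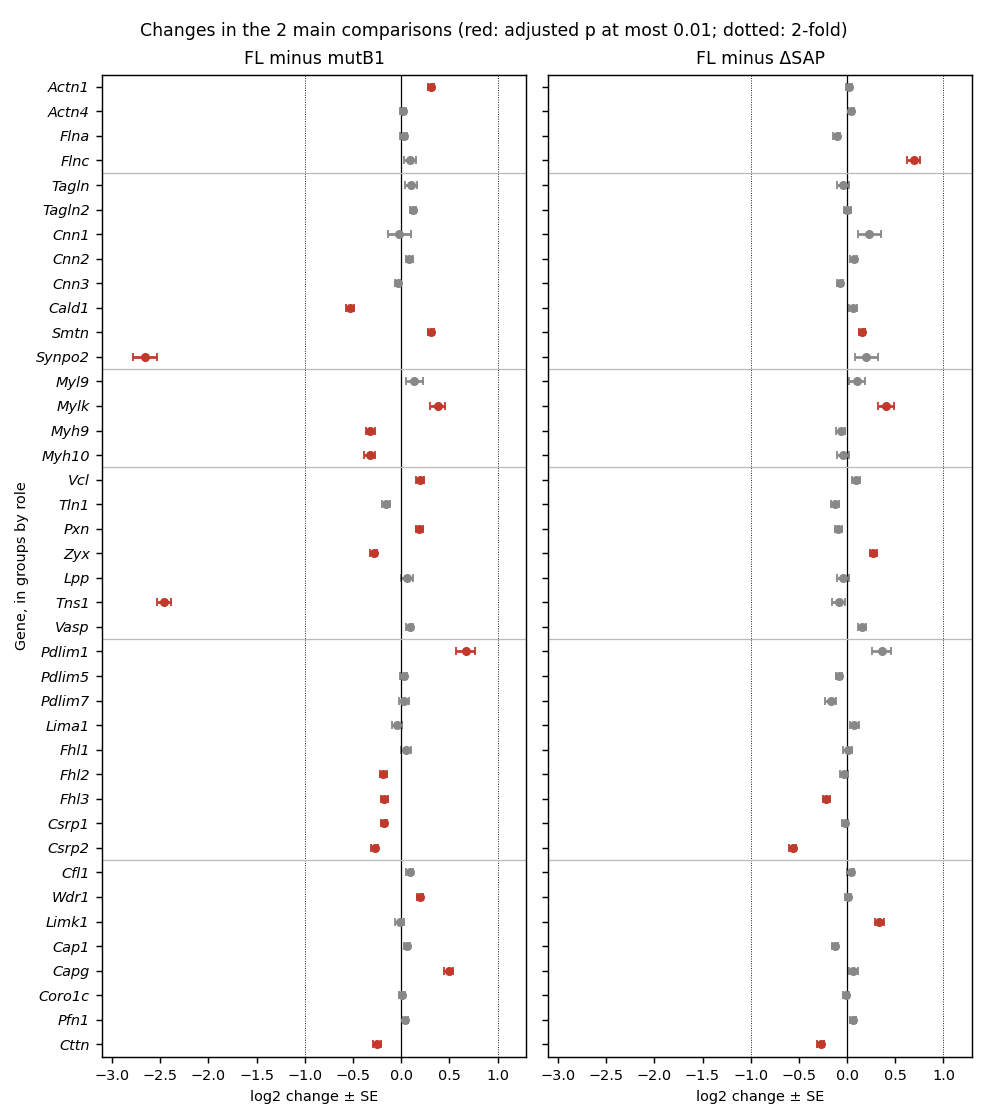
Log2 change with SE (horizontal axis) for each of the 40 genes in FL minus mutB1 (left) and FL minus ΔSAP (right), red where limma adjusted p is at most 0.01 and with dotted lines at a 2-fold change. Synpo2 and Tns1 are the only points beyond the dotted lines, on the left, and Flnc (0.69) and Csrp2 (-0.56) are farthest from 0 on the right.

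The LIM-domain genes encode adaptor proteins of stress fibres and Z discs, some of which also shuttle to the nucleus. Against control, where 9.61% (FL), 5.83% (mutB1) and 6.96% (ΔSAP) of all probe sets were higher, 4 of these 9 genes were higher in FL (Pdlim1, Pdlim7, Csrp1, Csrp2), 3 in mutB1 (Fhl3, Csrp1, Csrp2) and 4 in ΔSAP (Pdlim7, Fhl3, Csrp1, Csrp2). Pdlim5 was lower in FL and mutB1. Between FL and mutB1, 1 was higher in FL (Pdlim1), 4 were lower (Fhl2, Fhl3, Csrp1, Csrp2) and 4 did not pass. Between FL and ΔSAP, 2 were lower in FL (Fhl3, Csrp2) and 7 did not pass.

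Csrp2 encodes a cysteine- and glycine-rich LIM protein that bundles actin. How many of all probe sets were called in all 6 comparisons was not counted, and of the 40 genes Csrp2 was the 1 so called. Its values were 8.82, 8.80 and 8.82 in control, 9.13, 9.04 and 9.10 in FL, 9.36, 9.39 and 9.35 in mutB1 and 9.69, 9.61 and 9.66 in ΔSAP. No 2 lines overlap, and the order is control, FL, mutB1, ΔSAP. ΔSAP was 1.79-fold higher than control (0.84 ± 0.04, limma adjusted p = 1.14e-07), mutB1 exceeded control by 0.55 ± 0.04 (adjusted p = 2.25e-06) and FL by 0.28 ± 0.04 (adjusted p = 0.000208). FL was below ΔSAP by -0.56 ± 0.04 (limma adjusted p = 5.4e-06) and below mutB1 by -0.27 ± 0.04 (limma adjusted p = 0.000261). All 6 calls were kept in every alternative fit that was run.

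Csrp1, its close relative, was also above control in the 3 construct lines but with mutB1 highest. It read 12.13, 12.08 and 12.16 in control, 12.31, 12.27 and 12.31 in FL, 12.45, 12.51 and 12.47 in mutB1 and 12.33, 12.30 and 12.33 in ΔSAP. FL and ΔSAP overlap, and mutB1 is above all other arrays. MutB1 exceeded control by 0.35 ± 0.03 (limma adjusted p = 4.29e-05). FL was below mutB1 by -0.18 ± 0.03 (limma adjusted p = 0.00299, and 0.0149 without FL replicate 2), and FL minus ΔSAP was -0.02 (limma adjusted p = 0.739).

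Pdlim1, an adaptor that binds alpha-actinin, was highest in FL. It read 6.62, 6.73 and 6.75 in FL, 6.17, 6.32 and 5.99 in control, 6.10, 5.83 and 6.16 in mutB1 and 6.26, 6.37 and 6.40 in ΔSAP. All FL arrays were above all others, while control and mutB1 overlap, and the means of control, mutB1 and ΔSAP are low. FL was above mutB1 by 0.67 ± 0.10 (limma adjusted p = 0.000561), above control by 0.55 ± 0.10 (limma adjusted p = 0.00188) and did not pass against ΔSAP (0.36, limma adjusted p = 0.0313). A second Pdlim1 probe set passed in the same direction against mutB1 (0.52 ± 0.10, limma adjusted p = 0.00242), but it is low in every line (4.55 to 5.14).

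Pdlim5 and Pdlim7, its relatives, had other orders. Pdlim5 read 11.63, 11.64 and 11.61 in control, above 11.40, 11.42 and 11.42 in FL, 11.36, 11.44 and 11.35 in mutB1 and 11.49, 11.46 and 11.53 in ΔSAP. It was below control in FL by -0.22 ± 0.04 (limma adjusted p = 0.000861) and in mutB1 by -0.24 ± 0.04 (limma adjusted p = 0.00064). Pdlim7 ran the other way. It read 10.31, 10.31 and 10.13 in control, 10.51 on each FL array, 10.51, 10.43 and 10.48 in mutB1 and 10.68, 10.62 and 10.74 in ΔSAP. Control was lowest on every array and ΔSAP highest, with ΔSAP above control by 0.43 ± 0.05 (limma adjusted p = 0.000213) and FL by 0.26 ± 0.05 (limma adjusted p = 0.00424, and 0.0165 without FL replicate 2). Fhl3 was below ΔSAP in FL by -0.22 ± 0.04 (limma adjusted p = 0.00178) and below mutB1 by -0.17 ± 0.04 (limma adjusted p = 0.00453, and 0.0203 without FL replicate 2). Lima1 and Fhl1 passed in no comparison.

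Genes of filament turnover sever, cap, recycle or branch actin, or set these activities. Of 8, Wdr1 and Capg were higher and Cttn lower in FL against mutB1, and Limk1 was higher and Cttn lower in FL against ΔSAP. Capg, a capping protein, read 11.90 on each FL array, 11.79, 11.78 and 11.72 in control, 11.84, 11.79 and 11.88 in ΔSAP and 11.49, 11.31 and 11.41 in mutB1. MutB1 is below all other arrays. FL was 1.41-fold higher than mutB1 (0.49 ± 0.05, limma adjusted p = 3.12e-05), and mutB1 was below control by -0.36 ± 0.05 (limma adjusted p = 0.000408).

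Limk1, the kinase that inactivates cofilin, paired the lines differently. It read 8.62, 8.55 and 8.65 in FL and 8.62, 8.61 and 8.63 in mutB1, against 8.24, 8.22 and 8.20 in control and 8.23, 8.22 and 8.37 in ΔSAP. FL and mutB1 overlap, control and ΔSAP overlap, and the pairs do not. FL exceeded ΔSAP by 0.33 ± 0.05 (limma adjusted p = 0.000593) and control by 0.38 ± 0.05 (limma adjusted p = 0.000103), and mutB1 exceeded control by 0.40 ± 0.05 (limma adjusted p = 0.000133).

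Cttn, the cortactin that supports branched actin, was lowest in FL. It read 11.49, 11.43 and 11.53 in FL and between 11.71 and 11.84 on the other 9 arrays. Its change in FL was -0.25 ± 0.04 against mutB1 (limma adjusted p = 0.000562), -0.28 ± 0.04 against ΔSAP (limma adjusted p = 0.000529) and -0.33 ± 0.04 against control (limma adjusted p = 6.38e-05). Cttn was 1 of 5 genes called in the same direction in both main comparisons, with Smtn, Mylk, Fhl3 and Csrp2. The share of all probe sets called in this way was not counted, and both comparisons use the same FL arrays. Smtn, Mylk and Fhl3 each lost at least 1 of these calls when single arrays were left out. Wdr1, which speeds filament disassembly with cofilin, had FL above mutB1 by 0.19 ± 0.03 (limma adjusted p = 0.00108), a call lost after median centring. Cofilin (Cfl1), profilin (Pfn1) and Coro1c passed in no comparison, with spans of 0.11, 0.07 and 0.12.

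Relatives within a family did not always share their order of lines. In the Csrp and Pdlim families, the line that stood highest was not the same for the members, as given above. Among the alpha-actinins and filamins, Actn1 and Flnc were called in some comparisons, while Actn4 and Flna passed in none. The 2 heavy chains Myh9 and Myh10 were both highest in mutB1 at their brightest probe sets. The calponins, transgelins and Fhl genes each hold 1 member that was low in every line (Cnn1, Tagln and Fhl1). Whether the relatives differ from each other was not tested.

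Other genes of the actin pathway were counted in the same way. Of 69 such genes in a list of actin regulators and filament-binding proteins, 63 were analysed. In FL against mutB1, 7 were higher and 11 lower, with a median of 0.01, where 8.82% and 9% of all probe sets and, in either direction, 25% of the single-symbol genes were called. The highest were Lcp1, the leukocyte-type plastin (2.00 ± 0.04, limma adjusted p = 1.04e-09), Scin, a gelsolin relative (1.00 ± 0.14, adjusted p = 0.000326, with a low mean of 5.39 in mutB1), and the formin Daam1 (0.66 ± 0.05, adjusted p = 7.39e-06). The lowest were the cofilin phosphatase Ssh2 (-0.66 ± 0.05, limma adjusted p = 4.36e-06), the formin Fmnl2 (-0.55 ± 0.04, adjusted p = 3.78e-06) and the myosin light chain Myl12b (-0.52 ± 0.04, adjusted p = 2.81e-06). In FL against ΔSAP, 5 were higher and 3 lower, with a median of -0.06, beside 5.73% and 5.7% of all probe sets and 16.7% of the single-symbol genes. Scin led the lower genes (-1.66 ± 0.14, limma adjusted p = 2.41e-05), followed by Myl12b (-0.35 ± 0.04) and Tln2 (-0.25 ± 0.05), and Limk2 (0.27 ± 0.05), Pdlim2 (0.23 ± 0.04) and Arpc4 (0.22 ± 0.04) led the higher ones, with limma adjusted p between 9.47e-05 and 0.00384 for these 5.

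Of 17 further Srf and Mrtf target genes, 4 were higher and 3 lower in FL against mutB1, and 3 were higher and 5 lower in FL against ΔSAP, to be read against the same shares. In the first comparison Nexn, an actin-binding protein of muscle (1.10 ± 0.15, limma adjusted p = 0.000316), Actg2 (0.39 ± 0.08) and Itga5 (0.31 ± 0.04) had the largest positive values. Actg2 was low in both lines (6.04 and 5.65) and Nexn in mutB1 (5.29), so that these 2 differences may rest on background. Itga1, an integrin subunit (-0.71 ± 0.04, limma adjusted p = 8.7e-07), Ccn2 (-0.62 ± 0.05) and Palld (-0.35 ± 0.05) were lowest. In the second, Ankrd1 (0.38 ± 0.04), Ccn1 (0.36 ± 0.04) and Itga5 (0.19 ± 0.04) were highest, and Actg2 (-0.65 ± 0.08), Itga1 (-0.39 ± 0.04) and Palld (-0.32 ± 0.05) lowest, with limma adjusted p between 9.36e-05 and 0.00762 for these 6. Here too Actg2 was low in FL (6.04), beside 6.69 in ΔSAP, so that the size of its difference is uncertain. Itga1, Palld and Ccn2 (-0.24 ± 0.05 against ΔSAP, limma adjusted p = 0.00557) were lower in FL in both comparisons, and Itga5 was higher in both.

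The calls differ in how firmly they rest on these 12 arrays. Of the 81 calls that the 40 genes gave in the 6 comparisons, 42 were kept under all of the alternative fits at the same threshold, and 39 were lost under at least 1. In FL against mutB1 the kept calls were those of Actn1, Cald1, Smtn, Synpo2, Myh10, Zyx, Tns1, Pdlim1, Csrp2 and Capg (10 of 19). In FL against ΔSAP they were those of Flnc and Csrp2 (2 of 8). In these bulk samples, a smaller share of cells with a transcript and less transcript per cell cannot be told apart.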

How the data were processed

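Total RNA (100 ng) was amplified and hybridised to Affymetrix Mouse Gene 1.0 ST arrays, per the labels. The authors deposited log2 expression values per probe set, made with RMA in the affy package of Bioconductor 2.4, per the series design text; the submitters' processing notes name R 2.10.0. No scan batch or genome build is named in the labels. The precision is limited by the number of arrays.

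All 12 arrays were fitted in limma 3.58.1 (R 4.3.3; lmFit, eBayes, 1 mean per line), and p-values were adjusted by Benjamini-Hochberg across the 34760 probe sets. This script was tested on simulated data. Symbols came from GEO's platform annotation of 2016: 21640 probe sets had 1 symbol, 1321 several and 11799 none. Some genes of the pathway and marker lists were not analysed here. Values on each array are given for genes called by the F test with line means spanning at least 0.5, their relatives, and others chosen after their values were seen. The genes and lists were chosen with earlier results of these data known. Replicate numbers did not pair the samples: 2 of 18 same-numbered pairs had deviations that correlated above 0.1. Alternative fits are in the closing section.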

Additional observations from a re-analysis of the deposited data

How the results depend on the processing

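None of the 81 calls of the 40 genes changed direction under the alternatives run. A change without a call turned: for FL against control, averaging the probe sets of a gene gave Myh9 0.31, a call, where the brightest probe set gave -0.08, not a call; the disagreement of its 2 probe sets is built into that average. Fitting only the 2 lines compared left 11 calls in FL against mutB1, 3 in FL against ΔSAP, 7 in mutB1 against control, 6 in ΔSAP against control and 9 in ΔSAP against mutB1, with 6 arrays in place of 12. In ΔSAP against control an intensity trend gave 17 calls and an adjusted p of at most 0.05 gave 18. Adding the replicate number as a block, although the numbers do not pair the samples, gave 15, 6, 11, 12, 10 and 14 calls in the 6 comparisons in the order FL against mutB1, ΔSAP and control, mutB1 and ΔSAP against control, and ΔSAP against mutB1. After median centring the median change of the 40 genes was -0.018, -0.027 and -0.023 in FL against mutB1, ΔSAP and control, -0.0091 in ΔSAP against control and 0.016 in ΔSAP against mutB1. A further quantile normalization gave 0.012 in FL against mutB1, -0.00046 in FL against control and -0.013 in ΔSAP against control, so the sign of the median depends on the scaling in FL against mutB1, ΔSAP and control and in ΔSAP against control. With 1 array left out at a time, the medians lay between 0.018 and 0.043 in FL against mutB1 and between -0.003 and 0.018 in FL against ΔSAP. In FL against control they lay between 0.013 and 0.055, and in mutB1 against control between 0.0101 and 0.028. In ΔSAP against control they lay between -0.0049 and 0.016, and in ΔSAP against mutB1 between 0.019 and 0.037. The calls then numbered 13 to 20 in FL against mutB1, 6 to 8 in FL against ΔSAP, 9 to 14 in FL against control, 10 to 13 in mutB1 against control, 10 in ΔSAP against control and 12 to 15 in ΔSAP against mutB1. Of 159 pairs of gene and comparison without a call, 28 gained one under some alternative. The number of arrays limits the precision, and low genes (Tagln, Cnn1, Myl9, Fhl1) may hide a fall.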
